A study of Mus musculus with 12 samples.

Results

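The subunits of the proteasome and its regulators were taken as the rows of the deposited FPKM table whose symbol was Psm followed by a, b, c, d or e and a number. The rule found 43 genes among 56162 features, each symbol on 1 Ensembl identifier, and all 43 were joined to the count table by that identifier. The study compared myofibres of untrained and endurance-trained male C57BL/6J mice, labelled as 8 weeks old in every group, by SMART-seq, an RNA sequencing method for very small RNA inputs. Type I fibres are slow and oxidative and came from soleus, and type IIb fibres are fast and glycolytic and came from extensor digitorum longus. Each of the 4 groups had 3 libraries: type I untrained, type I trained, type IIb untrained and type IIb trained. Training was treadmill running for 6 weeks, 5 days a week, 60 min a day at 12 to 16 m/min, and tissue was taken 3 days after the last run. The labels name no introduced allele, and every muscle was freed of matrix at 37 °C with 2 mg/ml collagenase, which acted on soleus for 90 min and on extensor digitorum longus for 60 min, so that fibre type, muscle and digestion time cannot be told apart. Fibres were typed by myosin protein in a cut-off piece, and the labels do not say whether a library held 1 fibre or several. They name no separate animals either, so every p-value below measures the spread between these libraries, which may be partly technical.

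The proteasome is the protease that degrades proteins tagged with ubiquitin. Its barrel-shaped core stacks rings of alpha subunits, which gate the entrance, on rings of beta subunits, some of which carry the proteolytic sites, and a regulatory particle at the end of the barrel recognises ubiquitin, unfolds the substrate with a ring of ATPases and feeds it in. Interferon can replace the standard catalytic subunits with the immunoproteasome forms Psmb8, Psmb9 and Psmb10, and other activators, encoded by Psme genes, can take the place of the regulatory particle. In muscle the ubiquitin-proteasome system is best known for breaking down contractile proteins during wasting and for protein turnover in healthy fibres.

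By role the 43 genes were 7 alpha subunits (Psma1 to Psma7) and the testis alpha form Psma8, 4 structural beta subunits (Psmb1 to Psmb4), 3 standard catalytic beta subunits (Psmb5 to Psmb7), 3 immunoproteasome catalytic subunits (Psmb8 to Psmb10), the thymus catalytic form Psmb11, 6 ATPases of the regulatory particle (Psmc1 to Psmc6), 3 further subunits of its base (Psmd1, Psmd2 and Psmd4), 8 subunits of its lid, 3 chaperones of its assembly (Psmd5, Psmd9 and Psmd10) and 4 activator genes (Psme1 to Psme4). They lay on 16 chromosomes, with 8 on chromosome 11 and 6 on chromosome 14. In mm10 the genes most described below are Psma2 (ENSMUSG00000015671) at chr13:14613240-14674236, Psma3 (ENSMUSG00000060073) at chr12:70974621-70996347, Psma5 (ENSMUSG00000068749) at chr3:108256926-108279974, Psmb5 (ENSMUSG00000022193) at chr14:54614119-54618022, Psme1 (ENSMUSG00000022216) at chr14:55578123-55581529 and Psme4 (ENSMUSG00000040850) at chr11:30771726-30880361. Upstream windows of 250 bases from RefSeq (GRCm38.p6, the mm10 build) were matched to 36 of the 43 genes by symbol. The window held TGACNNNGC, the core of the antioxidant response element that the regulators Nfe2l1 and Nfe2l2 are known to bind, on either strand for 5 of 36 genes (13.9%), against 11.5% of 27025 genes with a window. CCAAT, the box of the factor NF-Y, was present on either strand for 14 genes (38.9%) against 37.5%, and TATAAA for 4 genes (11.1%) against 14.3%. No motif contains another, and a match describes the sequence and is not a binding site. The 120 bases before the gene start are shown for Psmb5 and Psmb6, standard catalytic subunits with the first motif close to the start, and for Psma2 and Psme4, the subunits described at most length below, with matches to TGACNNNGC or CCAAT on either strand in capitals. Each run reads 5′ to 3′ on the strand of its gene, and the Psmb6 run ends 10 bases before the annotated gene start.
Psmb5, chr14:54618023-54618142, minus strand: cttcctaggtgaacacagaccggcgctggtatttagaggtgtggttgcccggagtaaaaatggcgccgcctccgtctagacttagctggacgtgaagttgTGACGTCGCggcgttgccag
Psmb6, chr11:70525237-70525356, plus strand: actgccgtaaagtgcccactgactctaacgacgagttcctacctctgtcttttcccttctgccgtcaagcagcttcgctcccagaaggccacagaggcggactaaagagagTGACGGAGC
Psma2, chr13:14613120-14613239, plus strand: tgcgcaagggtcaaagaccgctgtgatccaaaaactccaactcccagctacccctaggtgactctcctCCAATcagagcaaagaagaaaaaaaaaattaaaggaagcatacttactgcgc
Psme4, chr11:30771606-30771725, plus strand: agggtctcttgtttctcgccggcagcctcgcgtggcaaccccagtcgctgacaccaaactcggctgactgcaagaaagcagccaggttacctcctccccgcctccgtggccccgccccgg
The catalytic pair carries TGACGTCGC and TGACGGAGC, Psma2 carries 1 CCAAT box, and the Psme4 stretch holds neither motif.

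Library totals ranged from 8026397 to 24995288 counts, and genes with at least 10 counts from 3636 to 14428. The fewest genes were found in the first type IIb untrained library (3636) and the first type IIb trained library (4291). Mitochondrially encoded genes took 5.86% to 34.7% of the counts. Summed slow-fibre markers were 46334 to 84445 CPM (counts scaled to the library total) in type I libraries and 1.16 to 47.5 CPM in type IIb libraries, and fast-fibre markers were 419 to 4995 CPM and 97921 to 192315 CPM, so every library carried the markers of its label. Summed markers of endothelial cells, which line capillaries, were 90.7 to 2259 CPM in untrained type I fibres, 1.24 to 275 CPM in trained ones, and 0 to 5.06 CPM in untrained and 0 to 407 CPM in trained type IIb fibres.

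The proteasome genes took 0.384% to 1.09% of the counts of a library. Their share was 0.677% ± 0.0998 (SD, n = 3) in untrained type I fibres, 0.684% ± 0.363 in trained ones, and 0.511% ± 0.0507 in untrained and 0.489% ± 0.0462 in trained type IIb fibres. The range in type I trained libraries, 0.384% to 1.09%, spanned every other library. A count was found in all 12 libraries for 30 genes, and at least 10 counts in all 12 for 26 genes. The filter on low counts passed 40 of the 43 genes into the tests, among 11747 genes in all, and left out Psma8, Psmb9 and Psmb11.

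Per length, the most abundant subunits were Psma3 and Psmb6. FPKM, the read count scaled to gene length and library total, is used for levels between genes in the next paragraphs. Psma3, an alpha subunit, was at 393, 363 and 583 FPKM in untrained type I fibres, 202, 235 and 849.8 in trained ones, and 512, 749 and 571 in untrained and 944, 416 and 429 in trained type IIb fibres. Psmb6, which carries the caspase-like site, was at 455, 362 and 777 FPKM in untrained type I fibres, 241, 231 and 759 in trained ones, and 1338, 429.7 and 458 in untrained and 25.6, 209 and 596 in trained type IIb fibres. The highest and the lowest Psmb6 values were thus the first type IIb untrained and the first type IIb trained library, the ones with the fewest genes. After these came the alpha subunit Psma6 with a mean of 379 ± 158 FPKM (SD over 12 libraries), the ATPase Psmc6 with 272 ± 168 and the lid deubiquitinase Psmd14 with 268 ± 145.

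**Figure D1:**
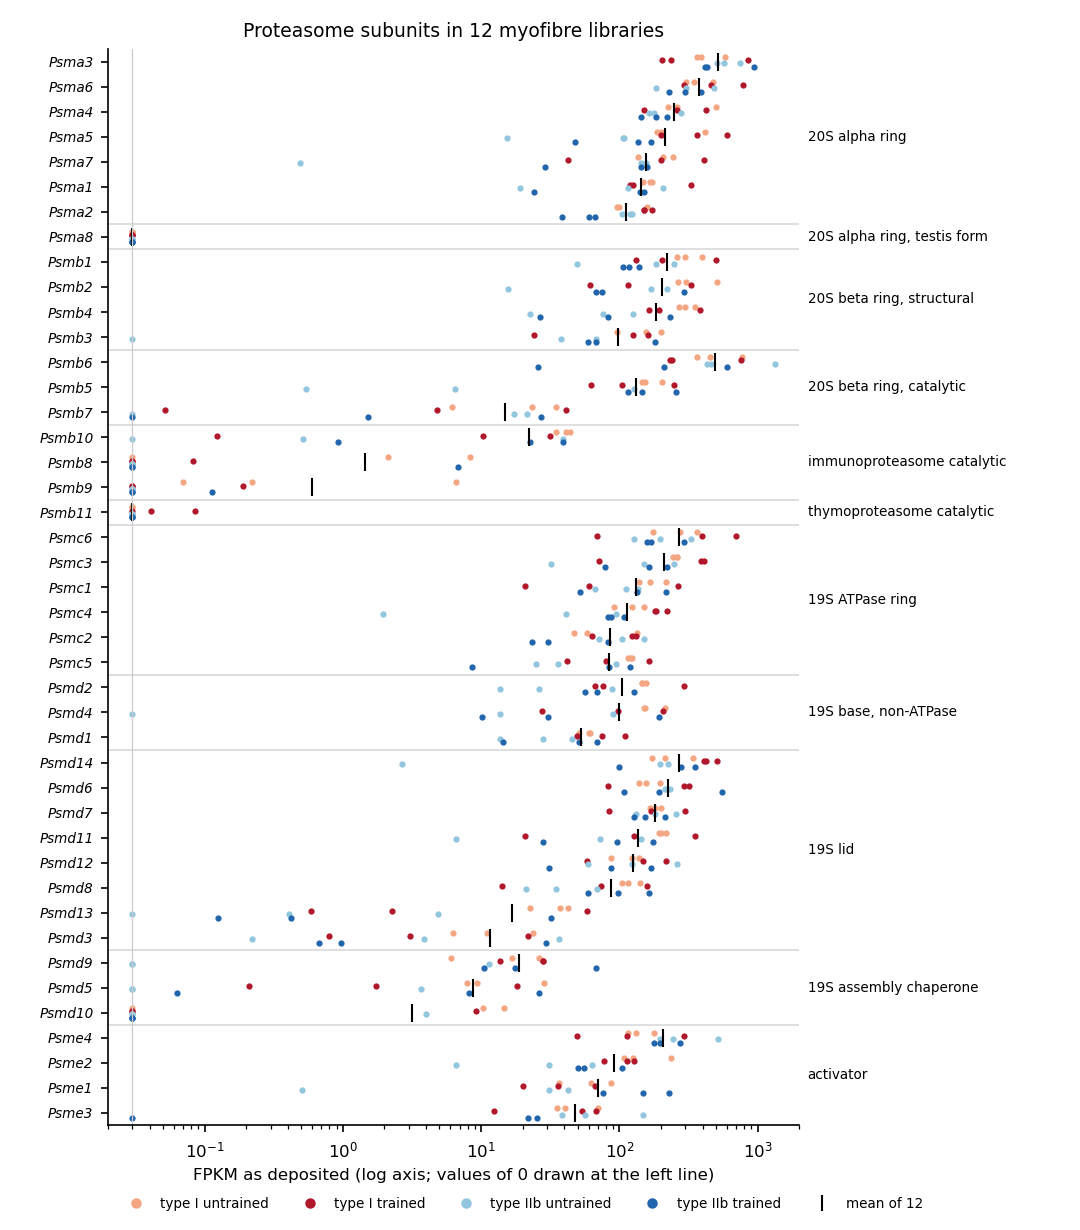
FPKM of the 43 proteasome genes (rows, grouped by role) in each of the 12 libraries (points, coloured by group) on a log axis, with the mean of 12 as a bar and values of 0 drawn at the left line. The alpha ring runs from a mean of 112 to 520 FPKM, while the immunoproteasome subunits, Psmb7, Psmd3, Psmd13 and the assembly chaperones have means below 25 and spread widely between libraries.

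Mean levels overlapped between most roles. The 7 alpha subunits had means of 112 to 520 FPKM, the 4 structural beta subunits 98.3 to 219.9, the 6 ATPases 84.3 to 272, the 3 further base subunits 52.4 to 105, the 8 lid subunits 11.5 to 268 and the 4 activators 47.5 to 208. The 3 assembly chaperones, which escort the ATPases and leave the finished particle, were at 18.8 (Psmd9), 8.68 (Psmd5) and 3.17 FPKM (Psmd10). Psmd5 and Psmd10 lay below all these ranges, while Psmd9 lay above the lid subunits Psmd13 (16.8) and Psmd3 (11.5). Psmd10 had counts in 4 of 12 libraries only, 190 and 515 in untrained and 179 in trained type I fibres and 81 in untrained type IIb fibres.

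Some of that order rests on length. The gene length in the deposited table equalled the mean length of the annotated transcripts for 42 of the 43 genes, and the longest transcript was 1.01 to 4.53 times as long (median 1.69). Psme4, which encodes the large activator PA200, had the highest ratio, with 1433 bases in the table and 6491 in its longest transcript. It ranked number 11 by FPKM, number 8 by TMM-scaled CPM per kilobase and number 28 by its longest transcript. Psma3 moved from rank 1 to rank 4 and Psmc6 from rank 4 to rank 16, while Psmb6 moved from rank 2 to rank 1. Over the 40 tested genes the order by table length and by longest transcript had a Spearman correlation of 0.904, with the counts shared between both.

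**Figure D2:**
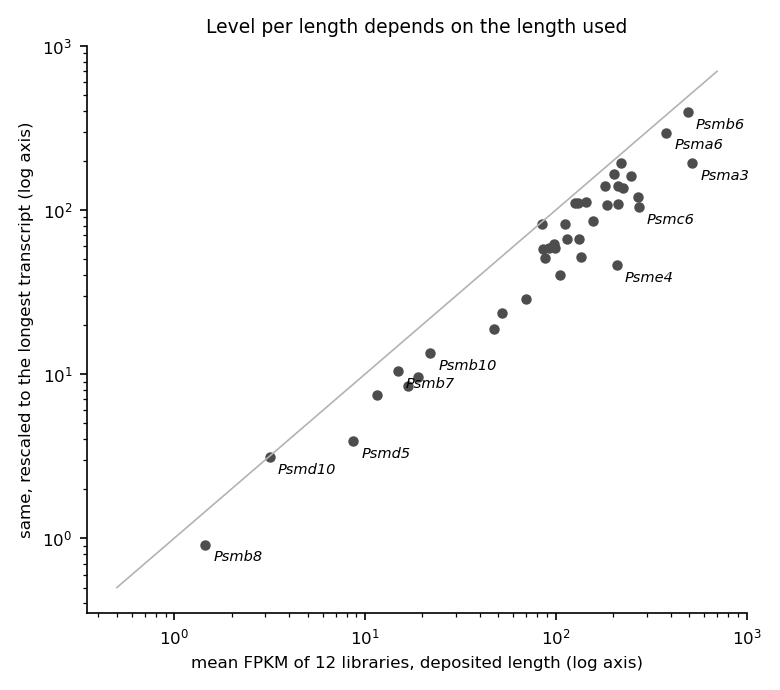
Mean FPKM over 12 libraries of the 40 tested genes with the deposited length (horizontal, log axis) and with the longest annotated transcript (vertical, log axis), with the line of equal values. Psme4 lies farthest below the line, since its longest transcript is 4.53 times its length in the table.

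The standard catalytic subunits were unequal in these libraries. Psmb5, which carries the chymotrypsin-like site, was at 205, 147 and 154 FPKM in untrained type I fibres, 105, 62.7 and 247 in trained ones, and 0.541, 127 and 6.43 in untrained and 259, 115 and 147 in trained type IIb fibres. It was near 0 in 2 type IIb untrained libraries and above 60 in all others. Psmb7, which carries the trypsin-like site, was at 23.3, 6.15 and 34.6 FPKM in untrained type I fibres, 0.0515, 4.78 and 41.2 in trained ones, and 0, 21.5 and 17.3 in untrained and 1.52, 0 and 27.3 in trained type IIb fibres. Its mean of 14.8 ± 14.7 FPKM (SD, 12 libraries) was below those of Psmb5 (131 ± 82.2) and Psmb6 (490 ± 348), and its highest library (41.2 FPKM) lay above the lowest libraries of Psmb5 (0.541) and Psmb6 (25.6). Exon sequence of Psmb7 overlapped Nek6 by 11.8%, and that of Psmb5 overlapped the small RNA gene Mir686 by 12.1%.

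Immunoproteasome subunits were scarce and uneven. Psmb8 had 30, 0 and 251 counts in untrained type I fibres, 0, 1 and 0 in trained ones, and none in untrained and 0, 0 and 125 counts in trained type IIb fibres. Those 3 libraries with over 10 counts of Psmb8 were also the 3 with the highest summed endothelial markers (2259, 1160 and 407 CPM). Their summed fibroblast markers were 278, 9492 and 305 CPM, and their summed leukocyte markers 48.4, 165 and 1.31 CPM. In all 3 each of the 14 endothelial markers had counts, Pecam1, Cdh5 and Kdr among them. The second trained type I library, next in endothelial sum (275 CPM), had 1 count of Psmb8, and the second untrained type I library (90.7 CPM) had 0. The part of these cell types in Psmb8 was not tested. Psmb9 had 95 counts over all libraries, 85 of them in the first type I untrained library, which had the highest endothelial sum. Psmb10 differed from both, with 388, 366 and 881 counts in untrained type I fibres, 80, 1 and 350 in trained ones, and 4, 448 and 0 in untrained and 7, 250 and 276 in trained type IIb fibres. The type IIb libraries with 448 and 250 counts of Psmb10 had endothelial sums of 0 and 0.498 CPM. Summed leukocyte markers there were 16.2 CPM, mainly Cd68 (9.44 CPM) and Mrc1 (5.90 CPM) with Ptprc at 0, and 0.498 CPM, and the part of such cells in Psmb10 was not tested. In libraries of this kind, fewer cells of a type and less RNA per cell cannot be told apart.

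**Figure D3:**
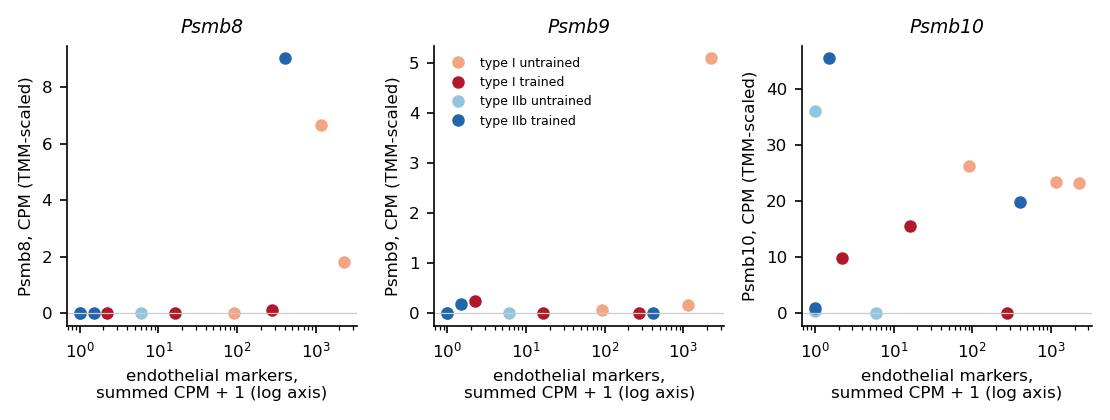
TMM-scaled CPM of Psmb8, Psmb9 and Psmb10 (vertical) against summed endothelial markers plus 1 (horizontal, log axis) in 12 libraries coloured by group. Psmb8 is above 1 CPM only in the 3 libraries with the highest endothelial sums, whereas Psmb10 reaches 45.5 and 36.1 CPM in libraries where that sum is 0.498 and 0.

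The share of immunoproteasome forms in the summed FPKM of Psmb5 to Psmb10 was 6.12% ± 0.854 (SD, n = 3) in untrained type I fibres, 1.98% ± 1.65 in trained ones, and 2.11% ± 3.63 in untrained and 4.92% ± 5.33 in trained type IIb fibres. Type I untrained libraries, at 5.18% to 6.83%, all lay above type I trained libraries, at 0.0688% to 2.95%. Both type IIb groups spanned a wide range, 0% to 6.30% untrained and 0.322% to 10.8% trained, and overlapped. Psmb11, the thymus form, had 4 counts in all, and Psma8, the testis form, had none in any library.

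Among the activators, Psme1 and Psme2 encode the subunits of PA28, Psme3 encodes the nuclear activator PA28 gamma and Psme4 encodes PA200. Psme2 was at 125, 108 and 238 FPKM in untrained type I fibres, 77.5, 114 and 128 in trained ones, and 31.0, 63.0 and 6.61 in untrained and 105, 49.8 and 55.3 in trained type IIb fibres. Psme3 was at 35.2, 70.4 and 40.4 FPKM in untrained type I fibres, 12.3, 54.1 and 67.7 in trained ones, and 147, 56.1 and 38.6 in untrained and 0, 25.4 and 21.8 in trained type IIb fibres. For Psme2 the lowest type I library (77.5 FPKM) lay below the highest type IIb library (105), and for Psme3 the trained type IIb libraries lay within the range of the trained type I libraries except for the one at 0. Psme1 and Psme2 lie close together on chromosome 14, and 59.3% of the 50-base stretches of Psme2 occur in other genes, Psme2b and Gm7928. Only 1 of these was taken as a pseudogene copy, and it held counts equal to 0.0507% of those of Psme2. Counts of the other gene were not compared.

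From here on levels are CPM with library sizes scaled by TMM, a method that balances the composition of libraries, so that a gene can be compared between libraries but not with another gene. Over the tested genes of the set the median coefficient of variation within a group was 27.3% in untrained type I fibres, 53.1% in trained ones, and 77.9% in untrained and 62.7% in trained type IIb fibres. Over all tested genes it was 60.1%, 106%, 124% and 123%. The first type IIb untrained library had the lowest CPM of the 12 for 16 of the 40 tested subunits and the highest for 6, and it was at 0 for 7. Its median over the 40 subunits was 20.1 CPM, while the other libraries had medians of 54.1 to 162 CPM.

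Training in type I fibres was the first comparison. No subunit passed the threshold, an adjusted p under 0.05 by edgeR's quasi-likelihood test with Benjamini-Hochberg adjustment over all 11747 genes, and 0% of all genes did. None of the 40 subunits had an unadjusted p under 0.05, against 2.94% of all genes, and DESeq2 and limma-voom called none either (0.502% and 0.0596% of all genes). The median log2 difference of the 40 was -0.05, with 19 above 0, against a median of -0.28 over all genes, of which 42.5% were above 0. All 3 trained libraries lay above all 3 untrained ones for 5 subunits, Psma1, Psma2, Psmc4, Psmd1 and Psmd14, where 2.78% of all genes did so, and below them for Psmb2 and Psmb10, where 8.93% of all genes did so. These names were chosen after their values were seen. With RLE size factors the higher subunits numbered 2 (Psmc4 and Psmd14, against 1.91% of all genes) and the lower 2 (10.6%), and with unscaled library totals 2 (the same pair, against 2.53%) and 1 (8.198%). Psmd14, the lid subunit that removes ubiquitin chains, was at 83.5, 138 and 156 CPM untrained and 351, 337 and 216 CPM trained, a log2 difference of 1.26 ± 0.97 (SE). Psmc4, an ATPase, was at 70.7, 128 and 110.3 CPM untrained and 246, 237 and 151 CPM trained, a log2 difference of 1.04 ± 0.95 (SE). Both have an adjusted p of 1 by edgeR.

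By role, the type I training differences were mixed. Of the 7 alpha subunits 6 were above 0 (median 0.41) and of the 6 ATPases 4 (median 0.59). The 4 structural and the 3 standard catalytic beta subunits were all below 0, with medians of -0.12 and -0.18, and the 3 assembly chaperones had a median of -1.29. The chaperones had wide errors, with log2 differences of 1.11 ± 2.03 (SE) for Psmd9, -1.29 ± 2.37 for Psmd5 and -1.77 ± 2.98 for Psmd10.

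**Figure D4:**
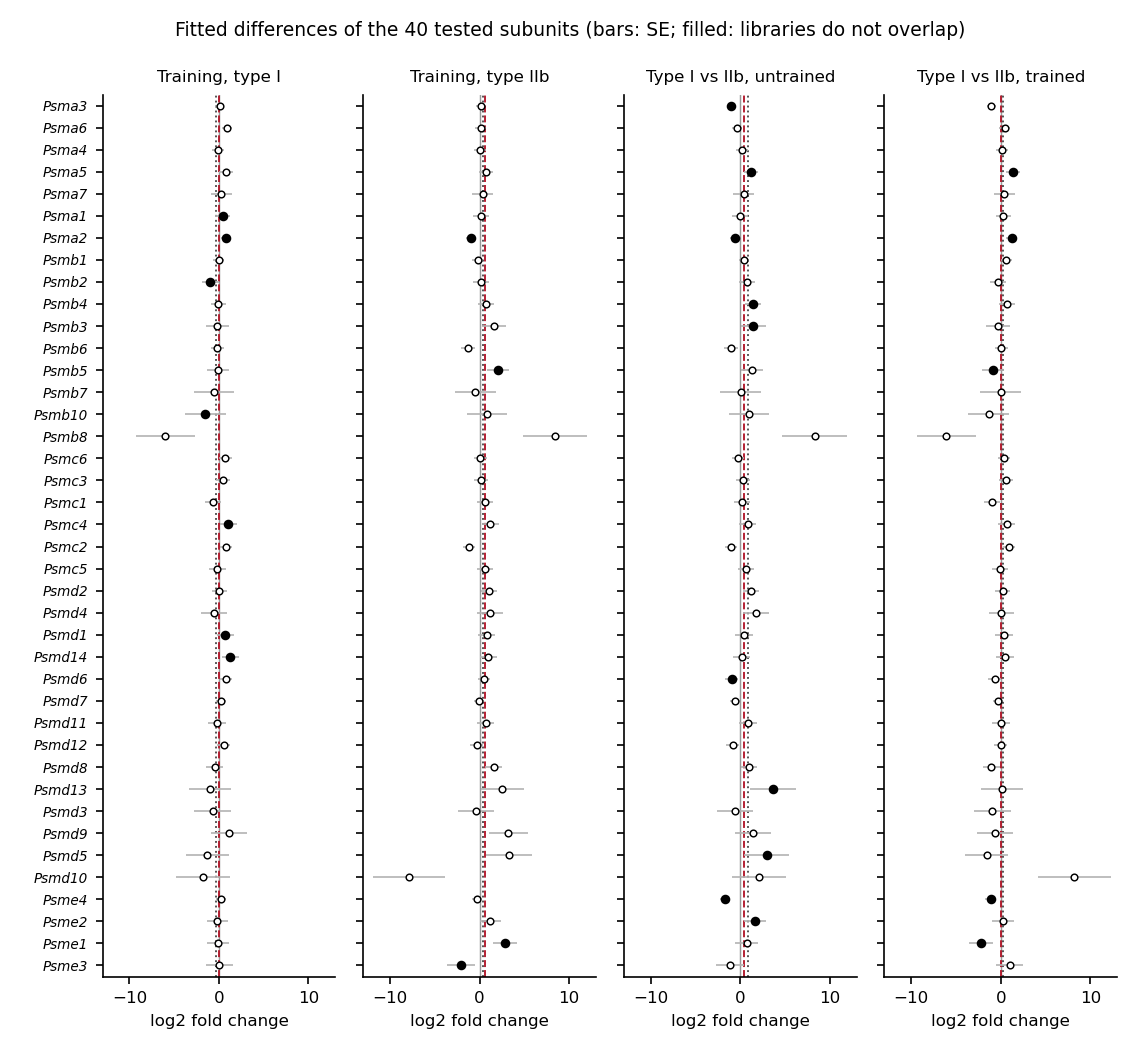
Log2 differences (points, with SE bars) of the 40 tested subunits for training in each fibre type and for type I minus type IIb in each treatment, from the fit to counts. Filled points mark genes whose 3 libraries on one side all lie beyond the 3 on the other on the TMM scale, the dashed red line is the median of the subunits and the dotted line that of all 11747 genes; no subunit passed the threshold, and the widest bars belong to Psmb8 and Psmd10.

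In type IIb fibres the difference with training had a median of 0.55 over the subunits, with 29 of 40 above 0, against 0.36 over all genes, with 61% above 0. None passed the threshold by edgeR (0% of all genes), 2 had an unadjusted p under 0.05 (8.21% of all genes), DESeq2 called 2 (Psmb8 higher and Psmd10 lower, where it called 3.1% of all genes) and limma-voom none (0%). Both genes that DESeq2 called were at 0 in most libraries. Psmb5 and Psme1 were higher without overlap (2.82% of all genes were), and Psma2 and Psme3 lower without overlap (1.92%).

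Psme1, a PA28 subunit, lay higher in all 3 trained type IIb libraries. Its levels were 0.434, 29.1 and 38.2 CPM in type IIb untrained and 227, 176 and 68.4 CPM in type IIb trained libraries, against 49.7, 28.2 and 33.5 CPM in type I untrained and 19.8, 64.7 and 18.3 CPM in type I trained libraries. The lowest trained type IIb library (68.4 CPM) lay just above the highest of the other 9 (64.7 CPM) on the TMM scale. This pattern was noticed after the values were seen and was not counted over all genes. The type IIb groups did not overlap with RLE size factors (2.93% of all genes were higher in this way) or library totals (2.46%) either. Counts pooled over the groups gave a 5.66-fold higher level in trained type IIb fibres, with a log2 difference of 2.801 ± 1.34 (SE) and an adjusted p of 0.597 by edgeR (unadjusted 0.04999). Without the first libraries of both type IIb groups, those with the fewest genes, the log2 difference was 1.83. Its partner Psme2 was at 20.1, 44.9 and 4.52 CPM untrained and 78.8, 44.8 and 37.5 CPM trained, and these overlapped.

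Psmb5 was at 0.434, 112 and 5.44 CPM in type IIb untrained and 241, 128 and 123 CPM in type IIb trained libraries, a log2 difference of 2.06 ± 1.25 (SE, adjusted p = 0.694 by edgeR). One untrained library lay close to the trained ones, and the groups overlapped with unscaled library totals. Psmb8 had 125 counts in the third trained library and none in the other 5 type IIb libraries. Pooled over libraries, Psmb8 was at least 49.98-fold higher in the trained group, taking 3 counts as the limit over the untrained group, with an adjusted p of 0.597 by edgeR. Without that 1 library, whose endothelial sum was 407 CPM, both groups were at 0. Psme3 was at 165, 69.2 and 45.6 CPM untrained and 0, 39.5 and 25.6 CPM trained, with an adjusted p of 0.820 by edgeR.

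Psma2, an alpha subunit, had groups that separated with training in both fibre types, in opposite directions, which in type I held on the TMM scale only. Of all genes 2.78% separated as higher in type I and 1.92% as lower in type IIb. The share that did both was not counted, and Psma2 was picked out after its values were seen. It was at 149, 192 and 223 CPM in type I untrained and 391, 384 and 229 CPM in type I trained libraries. In type IIb fibres it was at 234, 306 and 282 CPM untrained and 175, 121 and 143 CPM trained. The log2 differences were 0.83 ± 0.56 (SE) in type I and -0.91 ± 0.56 in type IIb fibres. The difference between both, tested as the interaction, was 1.74 ± 0.79 with an unadjusted p of 0.0413 and an adjusted p of 0.527 by edgeR. With RLE size factors or library totals the type I groups overlapped, while the type IIb groups stayed apart. Psma2 shares 3.53% of its 50-base stretches with other genes.

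For the interaction none of the 40 subunits passed the threshold by edgeR (0% of all genes), and 2 had an unadjusted p under 0.05, against 8.94% of all genes. These were Psma2 and Psmb8, the latter with a log2 value of -14.39 that rests on 3 libraries with over 10 counts. DESeq2 called 2, Psmb8 and Psmd10 (3.32% of all genes), and limma-voom none (0%). The median was -0.09, with 16 of 40 above 0, against -0.68 over all genes, with 39.4% above 0. Averaged over both fibre types, training gave no call by edgeR (0% of all genes) and no subunit with an unadjusted p under 0.05 (3.82% of all genes), while DESeq2 called 1, Psmd10 (1.93% of all genes), and limma-voom none (0.0255%). The median over the subunits was 0.31, with 27 of 40 above 0, against 0.15 and 55%.

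**Figure D5:**
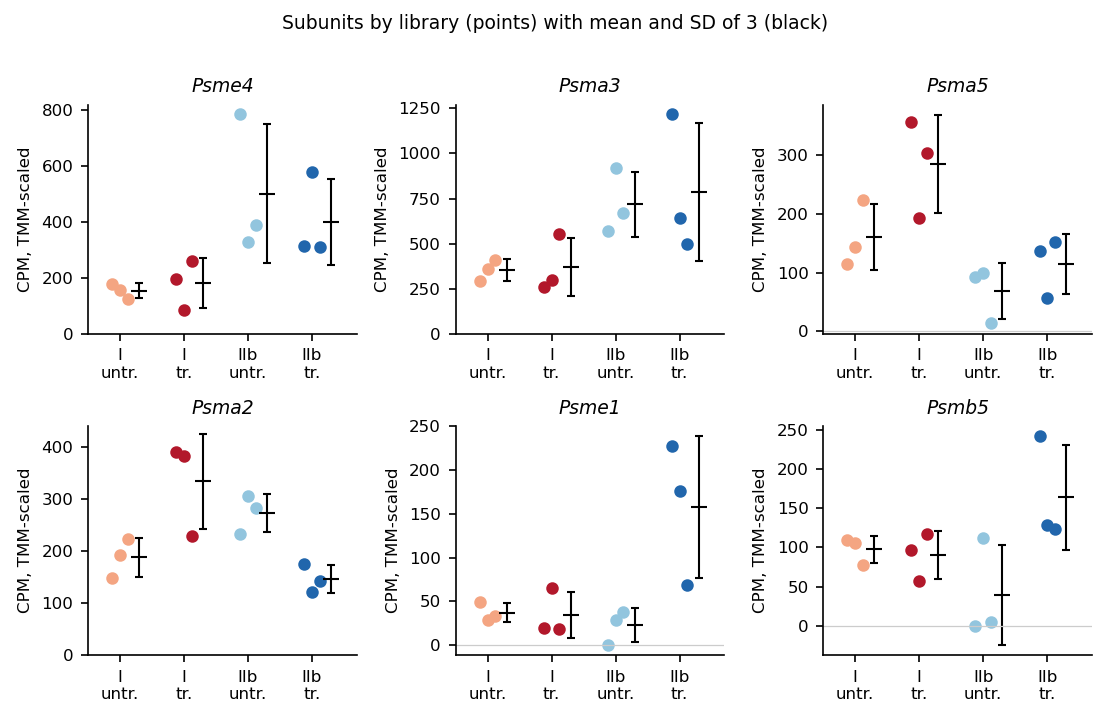
TMM-scaled CPM of 6 subunits in each library (coloured points), with mean and SD of the 3 libraries of a group in black. Psme4 lies higher in all type IIb than in all type I libraries, on this scale only. Psma3 is higher on average in type IIb and Psma5 in type I, with overlapping libraries. Psma2 is higher after training in type I (on this scale only) and lower in type IIb, and Psme1 and Psmb5 are highest in type IIb trained libraries.

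Fibre types were compared next, as type I minus type IIb. In untrained mice the median over the subunits was 0.42, with 28 of 40 above 0, against 0.85 over all genes, with 66.5% above 0. No subunit passed the threshold by edgeR (0.46% of all genes did), 2 had an unadjusted p under 0.05 (17.5% of all genes), DESeq2 called 1, Psmb8 (8.78% of all genes), and limma-voom 6 of 40 (17.9% of all genes). Those 6 were Psmb10, Psmd5, Psmd9 and Psmd13, higher in type I, and Psma3 and Psme4, lower. Type I libraries lay above all type IIb libraries for 6 subunits, Psma5, Psmb3, Psmb4, Psmd5, Psmd13 and Psme2, where 22.8% of all genes did so. They lay below for 4, Psma2, Psma3, Psmd6 and Psme4, against 4.88% of all genes. With RLE size factors these numbers were 10 and 3 (25.8% and 3.84% of all genes), and with library totals 16 and 2 (30.1% and 2.67%). Genes with at least 10 counts numbered 9711 to 14428 in type I untrained and 3636 to 9170 in type IIb untrained libraries, and in a fit with this number as a covariate the median of the 40 subunits was -0.12.

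In trained mice the median was 0.06, with 23 of 40 above 0, against 0.21 and 54.4% over all genes. None passed the threshold by edgeR (0.536% of all genes did), 2 had an unadjusted p under 0.05 (8.03% of all genes), DESeq2 called 1, Psmd10 (2.95% of all genes), and limma-voom none (1.49%). Psma2 and Psma5 were higher in type I without overlap (6.72% of all genes), and Psmb5, Psme1 and Psme4 lower (3.77%). Psmb5 and Psme4 were lower without overlap on the TMM scale only. With RLE size factors the numbers were 3 higher and 1 lower (6.74% and 3.92% of all genes), and with library totals 4 and 1 (9.07% and 2.45%). For Psma2 the pooled level was 2.00-fold higher in type I trained than in type IIb trained libraries, a log2 difference of 1.19 ± 0.56 (SE, adjusted p = 0.618 by edgeR), and the groups were apart under all 3 scalings. Psma3 had a log2 difference of -1.09 ± 0.49 (SE, adjusted p = 0.614 by edgeR) and overlapping groups.

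Over both treatments Psme4 came closest to the threshold. It was at 178, 157 and 126 CPM in type I untrained and 197, 83.8 and 261 CPM in type I trained libraries. Type IIb libraries had 786, 328 and 389.8 CPM untrained and 316, 579.5 and 309 CPM trained, so the lowest of 6 type IIb libraries lay above the highest of 6 type I libraries. The mean was 451 ± 193 CPM over type IIb and 167 ± 61.0 over type I libraries (SD, n = 6 each), and the pooled level was 2.54-fold lower in type I. The log2 difference was -1.43 ± 0.42 (SE) with an unadjusted p of 0.0030 and an adjusted p of 0.0833 by edgeR. Such a separation, in this direction, was found for 1.06% of all genes and for no other subunit, and the opposite one for none of the 40 subunits and 2.5% of all genes. With library totals the opposite separation held for 1 subunit, Psma5, and 3.40% of all genes. The Psme4 separation held on the TMM scale only: with RLE size factors and with library totals the 6 and 6 libraries overlapped, and the log2 difference was -1.29 and -0.84. In untrained mice alone it was -1.71 ± 0.60 (SE, 3.30-fold lower in type I, adjusted p = 0.230 by edgeR), with groups apart under all 3 scalings, and in trained mice -1.15 ± 0.59 (SE), with groups apart on the TMM scale only.

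Psma3 and Psma5, both alpha subunits, had log2 differences of opposite sign. Psma3 was at 291, 361 and 408 CPM in untrained type I fibres, 257, 296 and 556 in trained ones, and 568, 917 and 669 in untrained and 1221, 641 and 499 in trained type IIb fibres. The untrained groups did not overlap with TMM or RLE and did with library totals, and the trained groups overlapped. Over both treatments the log2 difference was -1.06 ± 0.35 (SE, adjusted p = 0.106 by edgeR), and -0.45 with library totals. Psma5 was at 114, 144 and 224 CPM in untrained type I fibres, 357, 193 and 304 in trained ones, and 92.6, 99.4 and 13.8 in untrained and 136, 56.5 and 152 in trained type IIb fibres. Under all 3 scalings type I lay above type IIb within untrained and within trained mice. Pooled, it was 2.31-fold higher in type I, with a log2 difference of 1.27 ± 0.55 (SE, adjusted p = 0.239 by edgeR). Of the 50-base stretches of Psma5, 55.4% occur in other genes, and its pseudogene copies held counts equal to 2.32% of its own.

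In this comparison over both treatments no subunit passed the threshold by edgeR (1.93% of all genes did), and 3 had an unadjusted p under 0.05 (16.9% of all genes). DESeq2 called 2, Psmb8 and Psmd10 (9.35% of all genes), and limma-voom 1, Psme4 (9.66%). A limma fit to log2(FPKM + 1) called 1, Psma5 (5.04% of all genes). The median of the subunits was 0.26, with 27 of 40 above 0, against 0.60 over all genes, with 65.1% above 0. With RLE size factors 29 of 40 subunits were above 0, against 68.5% of all genes, and the medians were 0.38 and 0.72. With library totals 35 of 40 were above 0, against 78.9% of all genes, and the medians were 0.81 and 1.15. In training of type I fibres the median of all genes was -0.28, -0.57 and -0.46 with TMM, RLE and library totals, and that of the subunits -0.05, -0.30 and -0.22.

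Psmb8 in untrained fibres had 281 counts over the type I group and 0 over the type IIb group, at least 44.6-fold higher with 3 counts as the limit for the latter, and an adjusted p of 0.240 by edgeR. Of these 281 counts 251 came from 1 library, without which the log2 difference was 6.47 in place of 8.30. Endothelial markers were higher in the same group, with 13 of 13 tested markers above 0, against 66.5% of all genes. Of these markers 12 had an unadjusted p under 0.05 by edgeR, against 17.5% of all genes. Also higher were 9 of 9 fibroblast markers (8 with an unadjusted p under 0.05 by edgeR) and 7 of 7 mural cell markers (7). The same held for 4 of 4 erythroid markers (3) and 3 of 4 leukocyte markers (2). Satellite cell markers differed, with 1 of 4 above 0 (1) and a median log2 difference of -0.27. In untrained type IIb libraries the mural sum was 0 CPM, and the endothelial and fibroblast sums were at most 5.06 and 10.6 CPM. A marker at 0 there that passes the filter can only come out higher in type I, so these marker numbers are a description and not a test. The library with 251 counts had the highest fibroblast (9492 CPM) and leukocyte (165 CPM) sums, and the part of these cells in the difference was not tested.

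Other genes of the pathway gave no call by edgeR in any of the 7 comparisons, which called 0% to 1.93% of all genes. The list of assembly chaperones and accessory factors of the proteasome had 13 tested genes. None of them had an unadjusted p under 0.05 by edgeR, against 2.94% to 17.5% of all genes, depending on the comparison. The smallest p belonged to Sem1, a small lid subunit, for training in type I (log2 1.05 ± 0.61, SE), to the deubiquitinase Usp14 for training in type IIb (-2.49 ± 2.02), for the fibre types in trained mice (3.79 ± 2.13) and for the interaction (3.77 ± 2.79), and to the deubiquitinase Uchl5 for the fibre types in untrained mice (-1.85 ± 1.11). Over both fibre types it was the ubiquitin receptor Adrm1 (1.76 ± 1.26), and over both treatments the core chaperone Psmg1 (-3.26 ± 1.82).

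The list of ubiquitin genes and delivery factors had 17 tested genes. With an unadjusted p under 0.05 by edgeR, 1 was higher and 1 lower for training in type IIb (8.21% of all genes). For the interaction it was also 1 higher and 1 lower (8.94%). None had such a p for training in type I (2.94%), training over both fibre types (3.82%) or the fibre types in trained mice (8.03%). Zfand5, a proteasome-binding zinc finger protein, had the smallest p for training in type IIb (log2 -1.05 ± 0.45, SE), for the fibre types in trained mice (0.87 ± 0.45) and for the interaction (1.48 ± 0.63). The ubiquitin gene Ubb had it for training in type I (-1.10 ± 0.57) and the ligase Ube3a over both fibre types (1.00 ± 0.52).

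Among 8 tested regulators of proteasome gene transcription the smallest p belonged to Nfe2l2, the activator of antioxidant genes, for training in type IIb (log2 2.33 ± 1.45, SE), for the fibre types in untrained mice (1.4999 ± 1.41) and for training over both fibre types (1.64 ± 1.00). Foxo1, a factor of muscle wasting, had it for training in type I (-1.68 ± 2.11) and for the interaction (-2.10 ± 2.93). Ngly1, the deglycosylase that processes Nfe2l1, had it for the fibre types in trained mice (-0.89 ± 1.18) and over both treatments (-1.01 ± 0.84). None of the 8 had an unadjusted p under 0.05 by edgeR, against 2.94% to 17.5% of all genes, depending on the comparison.

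Of 10 tested muscle ubiquitin ligases none had an unadjusted p under 0.05 by edgeR either, against the same shares of all genes (2.94% to 17.5%). Trim54, a ligase of the sarcomere, had the smallest p for training in type IIb (log2 2.29 ± 1.11, SE, unadjusted p = 0.0534 and adjusted p = 0.597 by edgeR), for the fibre types in trained mice (-1.48 ± 1.08), for the interaction (-1.54 ± 1.505) and for training over both fibre types (1.51 ± 0.76). Fbxo32, which encodes atrogin-1, had it for training in type I (2.72 ± 2.78). Traf6 had it for the fibre types in untrained mice (4.65 ± 3.09) and over both treatments (3.27 ± 2.05).

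The list of interferon and antigen presentation genes, which includes the inducers and partners of the immunoproteasome, had 11 tested genes. With an unadjusted p under 0.05 by edgeR, 2 were lower for training in type I (2.94% of all genes) and 2 higher in type IIb (8.21%). For the fibre types 3 were higher in untrained mice (17.5%) and 1 over both treatments (16.9%). For the interaction 2 were lower (8.94%). None had such a p for the fibre types in trained mice (8.03%) or training over both fibre types (3.82%). Irf1, the interferon-response factor known to switch on Psmb8 and Psmb9, had the smallest p for training in type IIb (log2 10.40 ± 3.61, SE), for the fibre types in untrained mice (11.59 ± 3.76), for training over both fibre types (3.58 ± 1.85) and for the fibre types over both treatments (4.77 ± 1.99). It was at 30.0, 8.68 and 81.0 CPM of the library total in untrained type I fibres, 0.310, 0 and 13.4 in trained ones, and 0, 0 and 0 in untrained and 22.0, 0 and 8.50 in trained type IIb fibres. The peptide transporter Tap1 had the smallest p for training in type I (-7.54 ± 2.78), and the class I gene H2-D1 had it for the fibre types in trained mice (-4.32 ± 2.24) and the interaction (-11.03 ± 3.35, adjusted p = 0.418 by edgeR). Irf1 was at 0 in all 3 untrained type IIb libraries and Tap1 in all 3 trained type I libraries. The size of the log2 values and SE against these groups is therefore not measured, and only the direction can be read. The values in this paragraph rest on groups with most libraries at or near 0. In the untrained type I libraries the endothelial sums were 2259, 90.7 and 1160 CPM and the fibroblast sums 278, 27.0 and 9492 CPM, and their part in these values was not tested.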

How the data were processed

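RNA was sequenced in 12 libraries of 4 groups. The deposited counts are whole numbers of reads per gene, not normalised, and the deposited FPKM values were scaled by the authors to gene length and library total. Per the submitters' processing notes, TopHat2 and mm10 were used. Counting program, annotation release and versions: not given in the sources used here. Positions and transcript lengths came from GENCODE M21, upstream sequences from RefSeq. Library totals were 8026397 to 24995288 counts, so 1 count was worth 0.0400 to 0.125 CPM. The lower limits given for fold differences of Psmb8 cover counting error only. The SD and SE values reflect the spread between libraries.

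Counts were tested in R 4.3.3 with edgeR 4.0.16 (robust quasi-likelihood, TMM), 1 mean per group over all 12 libraries, after a filter at a minimum count of 10 and total of 15, which left 11747 genes. The SE was derived from the fit as the size of a log2 difference over the root of its F value. Alternatives used DESeq2 1.42.0, limma 3.58.1 (voom with quality weights, and log2 of FPKM plus 1 or 0.1), other scalings and left-out libraries. The code was tested on simulated data. The genes and lists were chosen with earlier results of these data known. By rule, each library's value was given for Psmb5 to Psmb10, Psme1 to Psme4 and the 2 genes highest by FPKM, and tests for called subunits or else those with an unadjusted p under 0.05, and per list and comparison the gene with the smallest p. For 1 list, the gene so chosen in the fibre type comparisons in untrained mice and over both treatments is not reported here.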

Additional observations from a re-analysis of the deposited data

Results flagged for a closer look

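The training difference of Psma2, an alpha subunit, pointed in opposite directions in the fibre types. The type I difference minus the type IIb difference was 1.74 on the log2 scale, with an adjusted p of 0.527 by edgeR's interaction test. All 3 trained libraries lay above the untrained ones in type I fibres on the TMM scale, where the groups overlapped with RLE size factors or library totals, and below them in type IIb fibres under all 3 scalings.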

How the results depend on the processing

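By edgeR, no subunit was called in any comparison under any scaling, filter, covariate or left-out library tried, and counts with each library left out ranged from 0 to 0. The main edgeR fit itself called only 0% to 1.93% of all genes, depending on the comparison. With its share of all genes called in parentheses, DESeq2 called 2 of 40 subunits for training in type IIb (3.1%), 1 for the fibre types in untrained (8.78%) and 1 in trained mice (2.95%), 2 for the interaction (3.32%), 1 for training over both fibre types (1.93%) and 2 for the fibre types over both treatments (9.35%). Limma-voom with quality weights called 6 for the fibre types in untrained mice (17.9%) and 1 over both treatments (9.66%; Psme4, adjusted p = 0.0314), and the log2(FPKM + 1) fit called 1 over both treatments (5.04%; Psma5, adjusted p = 0.0498). The cause was not tested. Psmb8 with training in type IIb went from 8.40 to 0 on the log2 scale without type IIb trained replicate 3, which held all its counts there, and with each library left out in turn it lay between 0 and 9.05. The adjusted p of Psme4 over both treatments ranged from 0.0314 to 0.455 over 24 alternatives, with log2 values of -1.65 to -0.84, and the log2 interaction of Psma2 from 1.37 to 2.05. The median of the subunits changed sign in some alternatives for every comparison except training in type IIb. With the replicate number as a block, 0 subunits were called in each comparison. Of all 11747 genes, that fit called 0 for each training comparison and for the interaction. For the fibre types it called 21 higher and 21 lower in untrained mice, 16 and 25 in trained mice, and 72 and 66 over both treatments. Of 18 same-number pairs of libraries, 4 correlated above 0.1 (range -0.126 to 0.177). With 3 libraries per group, these correlations cannot decide whether equal numbers mark paired libraries, and the labels do not say so. The fit to only the compared groups was not run for the interaction and the comparisons over both. The rank of Psme4 by longest transcript and the separations under RLE and library totals were chosen after seeing the data. Low counts limit Psmb8, Psmb9, Psmb10 and Psmd10.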
